A study of Mus musculus with 6 samples.

Results

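Microexons are internal exons so short that the machinery which normally recognises an exon across its own length has little sequence to hold. They are defined largely by signals in the introns and exons beside them, and many are included in neurons, where the splicing factor Srrm4 is present, and skipped in most other cells, where Ptbp1 is abundant. A microexon whose length is a multiple of 3 adds or removes a few amino acids without shifting the reading frame. CD2BP2, the protein targeted in these mice, carries a GYF domain and takes part in the spliceosome's U5 particle.

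The microexons described here are 1739 exonic parts of 3 to 27 bases, out of 368092 parts in the deposited tables, of which 343079 belong to single genes. An exonic part is a stretch of a gene that one set of annotated transcripts shares. A microexon was a part of a single gene that adjoined no other part of that gene and whose listed transcripts all had parts on both sides of it. The 1739 microexons lay in 1232 genes, and 1646 of them carried a gene symbol. Position and length in the annotation chose them, and no count entered the choice.

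The tested libraries were 3 labelled CD2BP2 knockout (KO), set against 3 labelled wildtype control (WT), all from podocytes of mice on the C57BL/6 background. Podocytes are the epithelial cells whose foot processes wrap the capillaries of the kidney's filter. The labels describe a floxed CD2BP2 allele with the 3′ loxP site behind exon 3, but the treatment text speaks of bone marrow macrophages from CD2BP2flox/flox MxCre+ mice of 6 to 10 weeks and littermates given poly (I:C), and the labels do not say which Cre line deleted the gene in podocytes, nor whether animals were pooled. Whether each library is a different animal is not stated, and p-values measure the spread between these libraries.

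Part counts summed to between 214948912 and 255554573 in the KO libraries and between 186022084 and 231312370 in the WT libraries. Cd2bp2 itself stood at 48.4, 47.3 and 51.0 CPM (reads scaled to a common library size) in KO1, KO2 and KO3, against 61.0, 61.8 and 60.8 CPM in WT1, WT2 and WT3, so its transcript was lower in KO but not lost. The podocyte markers Podxl, Synpo and Wt1 were present in every library, with Podxl at 9477 ± 288 CPM in KO and 10192 ± 716 CPM in WT, Synpo at 1947 ± 209 CPM in KO and 2676 ± 239 CPM in WT, and Wt1 at 655 ± 61.6 CPM in KO and 753 ± 60.9 CPM in WT (SD, n = 3 each). Summed markers of macrophages (5 genes) stood at 150 to 168 CPM in KO and 78.2 to 103 CPM in WT, without overlap. Those of the proximal tubule (6 genes) stood at 480 to 721 CPM in KO and 310 to 489 CPM in WT, and those of later tubule segments (6 genes, from loop to collecting duct) at 254 to 1359 CPM in KO and 172 to 323 CPM in WT, overlapping. Endothelial markers (5 genes) stood at 4254 to 4510 CPM in KO and 4533 to 4721 CPM in WT. The part of these other cells in the usage results was not tested. In bulk RNA, fewer cells of a type and less RNA per cell cannot be told apart.

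Sequences came from the GENCODE M21 transcripts of the build GRCm38, matched by transcript and by the lengths of the microexon and both neighbouring exons. This placed 1086 of the 1739 microexons, of which 987 lay wholly in coding sequence, 22 in a 5′ UTR, 5 in a 3′ UTR and 57 in noncoding transcripts. Each sequence below is spliced, 5′ to 3′, with up to 20 bases of each neighbouring exon in lower case and the microexon in capitals. The first set holds the more robust of the 2 microexons past the usage test, Aifm3 part 34, and 4 that did not pass it but whose values are followed below against the exons beside them. H2-Q4 part 12, the other one past the test, is named only. The 5 are Aifm3 part 34 (chr16:17506899-17506919, plus strand), Zbtb8os part 4 (chr4:129340728-129340752, plus strand), Palld part 28 (chr8:61702170-61702193, minus strand), Mon2 part 8 (chr10:123009913-123009930, minus strand) and Rapgef6 part 35 (chr11:54671655-54671678, plus strand).
Aifm3 part 34: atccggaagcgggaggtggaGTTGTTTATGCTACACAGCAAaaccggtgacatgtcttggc
Zbtb8os part 4: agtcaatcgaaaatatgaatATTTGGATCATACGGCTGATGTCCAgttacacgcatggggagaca
Palld part 28: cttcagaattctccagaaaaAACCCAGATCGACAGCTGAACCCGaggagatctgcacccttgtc
Mon2 part 8: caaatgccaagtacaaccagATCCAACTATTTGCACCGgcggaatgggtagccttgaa
Rapgef6 part 35: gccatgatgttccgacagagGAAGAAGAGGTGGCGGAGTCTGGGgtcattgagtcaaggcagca

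The second set holds heavily counted microexons. Col4a1 part 41 (chr8:11240041-11240067, minus strand) and Col4a3 part 10 (chr1:82652161-82652187, plus strand) encode 27 bases of the collagen triple helix of the kidney's basement membranes, whose repeat is glycine and 2 further residues. Both sequences begin with GG, the start of a glycine codon. Across collagen genes, 75 microexons were found in 27 genes, 49 of them of 27 bases. Of the 44 collagen microexons of 27 bases placed in coding sequence, 40 began at the start of a codon and 39 began with GG. In other genes, 10 of 165 microexons of that length began with GG. Col1a2 part 7 (chr6:4508335-4508345, plus strand), Emcn part 13 (chr3:137422258-137422282, plus strand) and Selenow part 5 (chr7:15920449-15920473, minus strand) are not a multiple of 3 in length. Selenow encodes a selenoprotein, and its microexon was the only 1 of 962 with a coding window whose annotated frame read a stop triplet, TGA, the codon that such proteins read as selenocysteine.
Col4a1 part 41: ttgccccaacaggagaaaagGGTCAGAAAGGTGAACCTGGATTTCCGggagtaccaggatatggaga
Col4a3 part 10: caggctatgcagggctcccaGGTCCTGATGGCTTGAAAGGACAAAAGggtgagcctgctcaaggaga
Col1a2 part 7: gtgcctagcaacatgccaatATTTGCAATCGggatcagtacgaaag
Emcn part 13: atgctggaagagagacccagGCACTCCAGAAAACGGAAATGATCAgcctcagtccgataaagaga
Selenow part 5: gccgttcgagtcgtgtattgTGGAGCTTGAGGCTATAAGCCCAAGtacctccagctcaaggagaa

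The third set holds microexons in related genes, shown because the sequences of each of the first 3 pairs are alike. Macf1 part 10 (chr4:123364057-123364074, minus strand) and Dst part 110 (chr1:34296742-34296759, plus strand) belong to giant proteins that link microtubules to actin, and 16 of their 18 bases are identical. Eif4g1 part 22 (chr16:20674786-20674806, plus strand) and Eif4g3 part 17 (chr4:138095909-138095929, plus strand) belong to scaffolds of translation initiation, with 16 of 21 bases identical. Asap1 part 31 (chr15:64153844-64153852, minus strand) and Asap2 part 20 (chr12:21214362-21214370, plus strand) belong to GTPase-activating proteins of the Arf family, with 8 of 9 bases identical. Mef2a part 12 (chr7:67244521-67244544, minus strand) and Mef2d part 13 (chr3:88161781-88161801, plus strand), of transcription factors of muscle and neurons, have 24 and 21 bases.
Macf1 part 10: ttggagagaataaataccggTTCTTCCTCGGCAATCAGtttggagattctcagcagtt
Dst part 110: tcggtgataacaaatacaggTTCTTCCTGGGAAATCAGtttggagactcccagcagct
Eif4g1 part 22: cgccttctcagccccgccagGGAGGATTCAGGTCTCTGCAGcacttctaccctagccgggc
Eif4g3 part 17: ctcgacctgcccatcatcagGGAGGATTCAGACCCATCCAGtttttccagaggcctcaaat
Asap1 part 31: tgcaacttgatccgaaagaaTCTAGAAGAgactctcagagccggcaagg
Asap2 part 20: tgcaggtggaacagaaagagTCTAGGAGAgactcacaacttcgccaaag
Mef2a part 12: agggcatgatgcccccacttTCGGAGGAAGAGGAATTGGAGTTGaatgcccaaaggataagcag
Mef2d part 13: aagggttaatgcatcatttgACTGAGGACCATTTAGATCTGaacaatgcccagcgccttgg

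Lengths that keep the reading frame were common. Of the 1739 microexons, 1070 (61.5%) had a length that is a multiple of 3, compared with 46.7% of 10502 other internal separate parts of 28 to 60 bases and 39.9% of 117494 such parts over 60 bases. The most frequent lengths were 27 bases (262 microexons), 24 bases (159) and 21 bases (150), and 116 had 3 to 5 bases. Inclusion in only some of the transcripts that span the site was also frequent: 900 microexons (51.8%) were absent from at least 1 spanning transcript, against 16.2% of parts of 28 to 60 bases and 8.88% of longer ones. These figures describe the annotation and are not a measurement of the libraries.

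**Figure D1:**
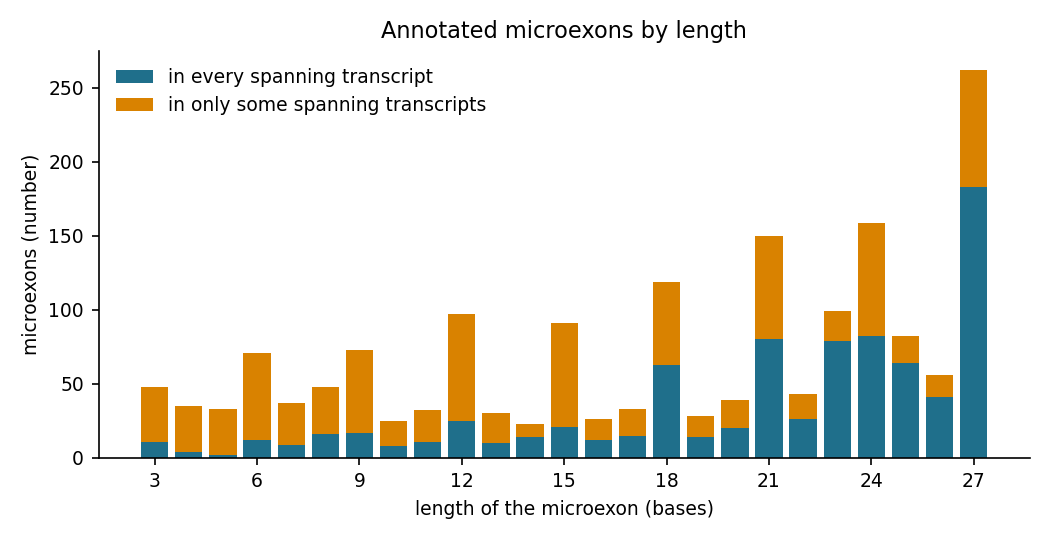
Annotated microexons by length in bases (x axis) and number (y axis), stacked by whether every transcript that spans the site holds them or only some do. The columns at multiples of 3 stand above their neighbours, with 262 microexons at 27 bases.

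Use of a microexon in these cells was described by its count relative to its flanks, the nearest separate parts over 27 bases on each side. Among 715 microexons whose flanks averaged at least 50 counts, those annotated in every spanning transcript had a median count of 56.4% of the flank mean, and those annotated in only some had a median of 1.41%. A count under 5% of the flanks was found for 312 of 438 microexons annotated in some transcripts (71.2%), and for 21 of 277 annotated in every transcript (7.58%). The same shares were 29.2% and 0.881% for internal parts of 28 to 60 bases. The other alternative microexons, whose flanks had fewer counts or were not defined, were not measured in this way. For a very short exon, a low share does not by itself show skipping. Col4a4 part 7 (9 bases) and Clasp1 part 30 (3 bases), both in every spanning transcript, stood at 2.41% and 2.47%. Ablim3 part 3 (8 bases), also in every spanning transcript, stood at 59.8%.

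The order of the frame classes differed between alternative and constant microexons; neither difference was tested, and lengths were not matched. Among microexons in only some transcripts, the median was 2.25% of the flanks for lengths that are a multiple of 3 (297 microexons) and 0.621% for others (141). For the 297, the medians were 2.44%, 1.63% and 2.12% in KO1, KO2 and KO3 and 2.38%, 2.09% and 2.16% in WT1, WT2 and WT3, so the groups overlapped. Among microexons in every transcript, it was 54.4% for a multiple of 3 (157 microexons) and 59.5% for others (120). For these 277, the medians were 57.4%, 56.7% and 56.1% in the KO libraries and 56.1%, 56.4% and 56.0% in the WT libraries. The 157 included a run of parts without a gene symbol that share the same flank mean, at 26.2% to 30.6% of it. Parts with short gaps to the next part were kept here, and how far they bear on the lower median of the 157 was not tested.

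The level relative to the flanks also moved with length. Among microexons in every spanning transcript with at least 30 bases to the parts on both sides, the median was 14.1% at 6 to 10 bases (9 microexons), 51.2% at 11 to 15 (26), 55.2% at 16 to 20 (42) and 60.5% at 21 to 27 (179). Internal parts of 28 to 60 bases in every transcript stood at 75.1%, and longer ones at 101%. The counts are not divided by length, so a longer part collects more reads, and reads that cross a very short exon are hard to align; how much each contributed was not tested.

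**Figure D2:**
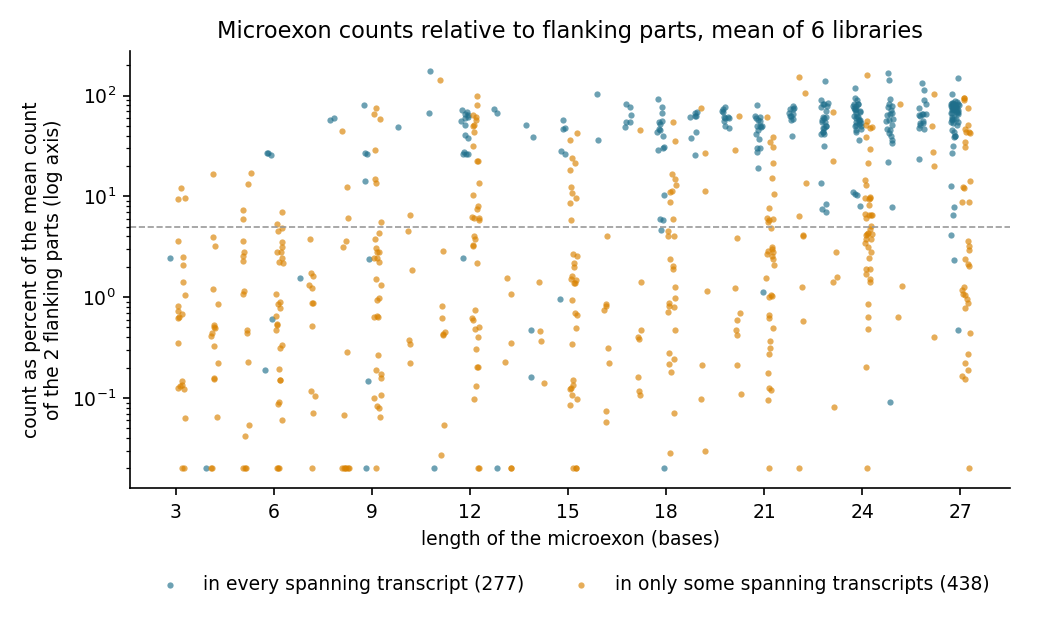
Count of each of 715 microexons as a percentage of the mean count of its flanking parts (log y axis, mean of 6 libraries) against its length in bases (x axis). Points drawn at 0.02% lie at or below that level, including 0; the dashed line marks 5%, and most microexons in only some transcripts lie under it while most in every transcript lie above it.

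Usage was then compared between KO and WT. Usage is the count of a microexon as a share of the summed counts of its gene, and it was tested with edgeR's quasi-likelihood test with the gene sum as offset, over 218768 parts with Benjamini-Hochberg adjustment. Of the 1739 microexons, 498 (28.6%) had no count in any library and 605, in 504 genes, had enough counts to be tested. Usage was lower in KO for 2 of the 605, Aifm3 part 34 and H2-Q4 part 12, and higher for 0. Over all parts tested, 0.121% were called, 0.0553% lower and 0.0654% higher. Other methods called between 0.0448% (diffSpliceDGE) and 0.246% (DESeq2) of all parts, with 0.145% for limma and 0.203% with a replicate block, and 0.00745% or 0.0167% of internal parts when neighbouring parts served as offset. At an unadjusted p under 0.05, 22 microexons were higher and 29 lower, 8.43% of the 605 against 5.74% of all parts. The share was 13.2% for tested microexons in only some spanning transcripts and 4.90% for those in every one. For internal parts of 28 to 60 bases in only some transcripts it was 11.4%. A share above that of all parts was therefore not particular to microexons.

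The 605 microexons as a whole were centred near no change. Their median log2 usage change was -0.01, as against 0.00 for all parts tested, with 286 above 0 and 319 below. The groups did not overlap for 35 microexons higher and 45 lower in KO; these are 5.79% and 7.44% of the 605, against 5.34% higher and 5.61% lower over all parts. The median standard error was 0.16 on the log2 scale for microexons and 0.09 for all parts. For 110 microexons with at least 500 counts, the median coefficient of variation of usage was 3.07% in KO and 3.75% in WT, and for 236 tested microexons with fewer than 50 counts it was 23.9% in KO and 23.5% in WT.

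By frame, neither length class moved as a group. The 385 tested microexons with a length that is a multiple of 3 had per-library medians of 0.01, -0.04 and 0.00 in KO1, KO2 and KO3 and -0.01, -0.02 and 0.01 in WT1, WT2 and WT3, as log2 usage over the WT mean. The 220 others had medians of 0.00, 0.00 and 0.00 in the KO libraries and 0.02, 0.00 and -0.02 in the WT libraries. KO and WT overlapped in both classes. An unadjusted p under 0.05 was found for 11.2% of the first class and 3.64% of the second; the difference between those shares was not tested. The 258 tested microexons in only some transcripts had a median log2 change of -0.05 and the 347 in every transcript 0.00, and both calls fell among the 258.

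**Figure D3:**
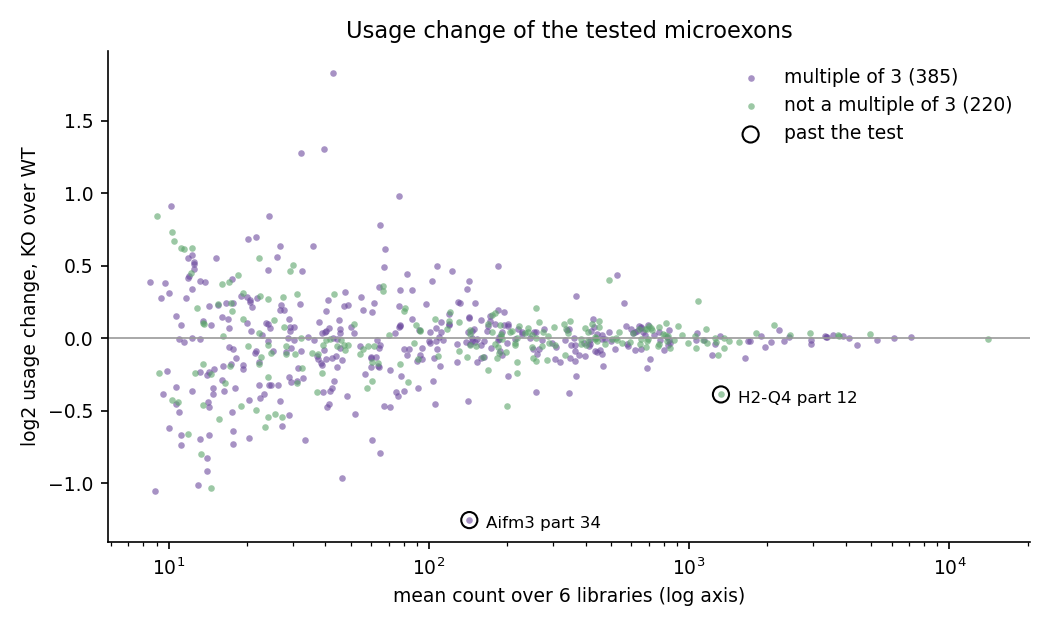
Log2 usage change, KO over WT (y axis), of the 605 tested microexons against their mean count over 6 libraries (log x axis), by frame; circles mark the microexons past the edgeR test. Points narrow around 0 as counts grow, and Aifm3 part 34 at -1.25 and H2-Q4 part 12 at -0.39 are circled.

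Aifm3 encodes a mitochondria-associated flavoprotein of the apoptosis-inducing factor family. Its 21-base microexon, part 34 (chr16:17506992-17507012, NCBIM37, plus strand), is listed in 3 of 4 transcripts that span the site and keeps the frame. It was counted 128, 82 and 81 times in KO1, KO2 and KO3, against 169, 198 and 200 in WT1, WT2 and WT3. Every KO library lay below every WT library, while the gene sums were 22387, 17533 and 15859 in the KO libraries and 14128, 15933 and 15622 in the WT libraries. Usage was 0.517 ± 0.0523% in KO and 1.24 ± 0.0421% in WT (SD, n = 3 each), a log2 change of -1.25 (SE 0.11; edgeR adjusted p = 0.000791; exact two-sided permutation p = 0.1, the smallest that 3 against 3 libraries allow). It also passed without each library in turn, with edgeR adjusted p from 0.00101 to 0.0127.

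The gene as a whole did not move with it. Aifm3 averaged 77.4 ± 10.3 CPM in KO and 77.7 ± 10.0 CPM in WT (SD, n = 3 each), a log2 change of -0.01 (edgeR adjusted p = 0.985). Relative to the mean count of the parts on its 2 sides, parts 33 and 35, the microexon stood at 10.1%, 8.28% and 9.12% in KO1, KO2 and KO3, against 24.5%, 23.8% and 26.0% in WT1, WT2 and WT3. The 2 groups were far apart, with means of 9.16 ± 0.905% in KO and 24.8 ± 1.10% in WT (SD, n = 3 each).

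The microexon was not the only Aifm3 part with lower usage in KO. Parts 28, 30 and 32, each listed in 1 transcript and directly adjoining an exon, were also lower, by log2 changes of -1.07, -1.23 and -0.82 (edgeR adjusted p = 0.000134, 2.2e-05 and 0.0140). Part 30 had a usage of 1.70 ± 0.152% in KO and 3.99 ± 0.163% in WT (SD, n = 3 each). The exons beside the microexon did not pass the test: part 33 changed by 0.26 (adjusted p = 0.190) and part 35 by 0.11 (adjusted p = 0.730). Whether the microexon and these parts belong to the same RNA molecules cannot be read from part counts.

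**Figure D4:**
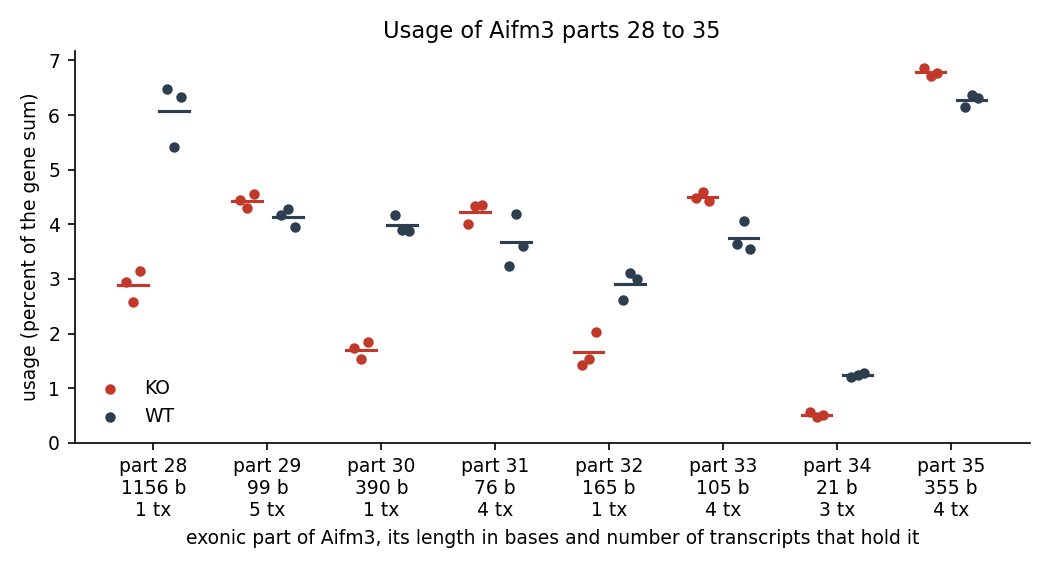
Usage of Aifm3 parts 28 to 35 (percent of the gene sum, y axis) in each library, KO left of WT within each part, with the mean as a line. Parts 28, 30, 32 and 34 are lower in all 3 KO libraries than in all 3 WT libraries, and parts 29, 31, 33 and 35 are not lower in KO.

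H2-Q4 encodes a heavy chain of the MHC class I family, whose near-identical copies on mouse chromosome 17 can share reads, so its counts are uncertain. Its 26-base microexon, part 12 (chr17:35520696-35520721, NCBIM37, plus strand), is in 1 of 4 spanning transcripts and lies 28 bases from the next part. Usage was 1.51%, 1.73% and 1.43% in KO1, KO2 and KO3, against 1.96%, 2.14% and 1.97% in WT1, WT2 and WT3, with no overlap. The log2 change was -0.39 (SE 0.06; edgeR adjusted p = 0.0361). This call rested on single libraries and on the offset: the adjusted p was 0.263 without KO1, 0.0648 without KO3, 0.0782 without WT1, 0.238 without WT2 and 0.0879 without WT3. KO1 held 3059 of the microexon's counts, against 825 in KO2 and 967 in KO3.

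The direction for H2-Q4 part 12 turned round when the nearest separate parts of any length, parts 11 and 13, replaced the gene sum. The log2 change was then 0.25 (edgeR adjusted p = 0.0909). Parts 11, 13 and 14 beside it also had lower usage in KO, by -0.81, -0.36 and -0.33, while parts 4, 6, 7, 8 and 9 upstream had higher usage, by 0.27 to 0.36 (edgeR adjusted p under the threshold for each, from 0.00163 to 0.0451). The microexon was thus 1 of 4 neighbouring parts with lower usage in KO. H2-Q4 as a gene had a log2 change of 0.69 (edgeR adjusted p = 0.455).

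A further 4 microexons, Zbtb8os part 4, Relb part 20, Macf1 part 41 and Gm20721 part 3, each passed in 1 alternative fit of the 6 libraries and not in the test above. Zbtb8os part 4, of the archease that assists tRNA ligation, had a usage of 6.49 ± 0.353% in KO and 4.90 ± 0.503% in WT (SD, n = 3 each), without overlap. Its log2 change was 0.40 (edgeR adjusted p = 0.0926; DESeq2 adjusted p = 0.0182), and 0.02 when the nearest parts that are not microexons served as offset. Relb part 20, a 9-base microexon of an NF-κB subunit, was counted 169, 28 and 33 times in KO1, KO2 and KO3, against 17, 6 and 4 in WT1, WT2 and WT3. KO1 alone stood far above the rest, and the usage change was 1.83 in all libraries and 0.63 without KO1 (edgeR adjusted p = 0.765 and 1.00).

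Macf1 part 41, of 9 bases, did not separate the groups. It was counted 323, 732 and 808 times in KO1, KO2 and KO3, against 276, 755 and 273 in WT1, WT2 and WT3, so KO2, KO3 and WT2 were high and KO1, WT1 and WT3 low. Its log2 usage change was 0.44 (edgeR adjusted p = 0.970; limma adjusted p = 0.0453). Gm20721 part 3, a 7-base microexon that overlaps another gene and lies 4 bases from the next part, changed by -0.47 (edgeR adjusted p = 0.659; limma adjusted p = 0.00545), with usage of 0.0658%, 0.0399% and 0.0704% in KO1, KO2 and KO3 and 0.0829%, 0.0777% and 0.0841% in WT1, WT2 and WT3, without overlap.

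The next microexons by size of change, with at least 50 counts and groups that did not overlap, are given as values, since none of the 10 passed the edgeR test. Higher in KO were Palld part 28 (actin-bundling palladin) by 0.78, ENSMUSG00000075118 part 2 by 0.50, Layn part 10 (the hyaluronan receptor layilin) by 0.49, Suco part 13 by 0.46 and Agrn part 14 (agrin, a proteoglycan of basement membranes) by 0.44. Lower in KO were Rapgef6 part 35 (an activator of Rap GTPases) by -0.79, Fnbp1l part 8 (a membrane-bending F-BAR protein) by -0.70, Herc4 part 17 (a ubiquitin ligase) by -0.47, Ero1lb part 10 (an oxidase of the endoplasmic reticulum) by -0.46 and Mon2 part 8 (endosome traffic) by -0.43. Their edgeR adjusted p ran from 0.122 to 0.808.

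Against flanks, some of these differences disappeared and some did not. Palld part 28 is in all 6 spanning transcripts and had a usage of 0.208%, 0.256% and 0.221% in KO1, KO2 and KO3, against 0.136%, 0.106% and 0.155% in WT1, WT2 and WT3. Relative to its flanks it stood at 57.4 ± 3.53% in KO and 57.6 ± 1.86% in WT (SD, n = 3 each), a difference within the spread, while the gene fell by 0.77 on the log2 scale (edgeR adjusted p = 0.0219). Ero1lb part 10 likewise overlapped, at 73.3 ± 7.97% in KO and 77.3 ± 2.89% in WT, while Suco part 13 did not, at 34.3 ± 1.86% in KO and 25.1 ± 2.64% in WT (SD, n = 3 each).

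Mon2 part 8 kept its difference against the flanks. It stood at 13.3%, 12.8% and 12.1% of them in KO1, KO2 and KO3, against 17.3%, 17.3% and 17.96% in WT1, WT2 and WT3, the groups lying clearly apart. With flanks as offset its log2 change was -0.46 (edgeR adjusted p = 0.199). Rapgef6 part 35 stood at 7.22%, 7.27% and 6.95% of its flanks in KO1, KO2 and KO3, against 12.2%, 9.87% and 14.3% in WT1, WT2 and WT3. Its log2 change with such neighbouring parts as offset was -0.78 (edgeR adjusted p = 0.357), on 50 to 54 counts in each KO library and 53 to 103 in each WT library. Both microexons keep the frame and are in only some transcripts.

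Heavily counted microexons set the precision that these libraries can reach. Emcn part 13, of endomucin, a sialomucin of endothelial cells, was counted 15322, 14052 and 14862 times in KO1, KO2 and KO3, against 12181, 12840 and 15095 in WT1, WT2 and WT3. Its usage was 4.86 ± 0.0350% in KO and 4.88 ± 0.0523% in WT (SD, n = 3 each), overlapping, with a log2 change of 0.00 and an SE of 0.02 (edgeR adjusted p = 1.00). Col4a1 part 41 had a usage of 1.46 ± 0.0265% in KO and 1.45 ± 0.0751% in WT, and Col4a3 part 10 of 0.712 ± 0.0203% in KO and 0.712 ± 0.00849% in WT (SD, n = 3 each). The 5 most counted microexons of each frame class, those named here with Col4a1 part 47, Tns3 part 2, Cfl1 part 5, Nap1l1 part 13, Parva part 16, Col1a2 part 7 and Selenow part 5, had log2 usage changes between -0.05 and 0.03, overlapping groups and SEs of 0.02 to 0.04. Cfl1 part 5 lies 2 bases from the next part on each side, a gap too small for an intron.

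Col1a2 showed the contrast between a gene and its microexon. The gene, a chain of fibrillar collagen I, rose by 1.98 on the log2 scale, with 2212 ± 184 CPM in KO and 562 ± 89.0 CPM in WT (SD, n = 3 each; edgeR adjusted p = 0.00554). Its 11-base microexon was counted 6217, 5613 and 6738 times in KO1, KO2 and KO3, against 1194, 1354 and 1249 in WT1, WT2 and WT3. As a share of the gene it overlapped between groups, at 1.17 ± 0.0232% in KO and 1.15 ± 0.0291% in WT (SD, n = 3 each), a log2 change of 0.02 with an SE of 0.03. All microexons together held 0.107%, 0.108% and 0.108% of counts in KO1, KO2 and KO3, and 0.102% in each WT library. Without Col1a2 these shares were 0.104%, 0.105% and 0.105% in KO and 0.101%, 0.102% and 0.102% in WT, still without overlap. A share of all counts moves with the levels of the host genes as well as with usage. It is therefore not a measure of usage, and the difference was not tested.

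Levels of the host genes were tested apart from usage. Of 982 genes with a microexon that could be tested at gene level, 28 rose and 23 fell in KO, where 3.37% of all 19742 genes tested were called, 1.62% higher and 1.76% lower. Their median log2 change was -0.01 and that of all genes 0.01. The calls included Tspan32, a tetraspanin, at 36.9 ± 0.781 CPM in KO and 5.55 ± 0.278 CPM in WT, and Ntrk3, the neurotrophin-3 receptor, at 42.5 ± 7.44 CPM in KO and 105 ± 2.27 CPM in WT (SD, n = 3 each). These calls depended on the libraries used: 2 genes, Tspan32 and Col1a2, passed without each library in turn, and 23 passed in none of those 6 fits. Of the 27 changed genes whose microexon was tested for usage, 22 had a usage change within 0.2 of 0 on the log2 scale, among them Ablim3 (gene 1.09, usage 0.01), Ntrk3 (gene -1.31, usage 0.05) and Trp53 (gene 0.55, usage 0.02).

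Microexons of the podocyte gene list were few. That list of 38 genes held 9 microexons in 6 genes, of which 7 were tested and 0 passed edgeR's test; 3 of the 7 had an unadjusted p under 0.05, all higher in KO, where 5.74% of all parts had one in either direction. The 7 log2 usage changes ran from -0.04 to 0.78, with a median of 0.44, next to 0.00 for all parts. The highest, Palld part 28, was -0.00218 with the nearest separate parts as offset, so its usage change is not a measure of inclusion. The median is of shares of the gene sum, and no such median against neighbouring parts is given here. The collagen IV microexons Col4a3 part 10 and Col4a5 part 12 changed by 0.00 and -0.04. Of the 9, 5 stood under 5% of their flanks. Those in only some spanning transcripts numbered 5, of which 4 stood under 5%, where 71.2% of all such microexons did. Agrn part 14, for example, had a usage of 0.0634 ± 0.0107% in KO and 0.0468 ± 0.00425% in WT (SD, n = 3 each).

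A list of 80 genes known to hold microexons, many of them in neurons, had 100 microexons in 58 genes. Of 76 with flanks of at least 50 counts, 54 stood under 5% of the flanks, with a median of 2.02%, and 6 stood at 50% or more. Of these 76, 69 were in only some spanning transcripts, and 53 of the 69 stood under 5%. Among all microexons in only some transcripts, 312 of 438 did (71.2%), with a median of 1.41%. A low share was therefore not particular to this list. Low examples were Mef2d part 13, at 1.31 ± 0.755% of its flanks in KO and 1.81 ± 0.227% in WT, Cpeb4 part 7, at 2.27 ± 0.0861% in KO and 1.41 ± 0.529% in WT, and Asap1 part 31, at 2.85 ± 0.248% in KO and 2.73 ± 0.857% in WT (SD, n = 3 each). Asap1 part 31 has 9 bases, a length at which a low share does not by itself show skipping. The neuronal markers Snap25, Tubb3, Syt1 and Rbfox3 had at most 5, 33, 58 and 122 counts in any library. Srrm4, the other neuronal marker listed, had 5287 to 7331 counts, most of them at its 3′ end as described below. Of 49 tested microexons of the list, 0 passed the edgeR test, 3 were higher and 7 lower at an unadjusted p under 0.05 (8.43% of all tested microexons and 5.74% of all parts), and the median log2 change was -0.01.

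Some microexons of that list were used at intermediate levels. Abi1 part 22, of a subunit of the WAVE complex that drives actin assembly, stood at 36.7%, 36.0% and 35.7% of its flanks in KO1, KO2 and KO3, against 36.2%, 39.6% and 35.8% in WT1, WT2 and WT3, overlapping. Sptan1, the spectrin αII chain, held a 24-base microexon in all 6 spanning transcripts, part 40, at 69.0 ± 0.376% in KO and 69.4 ± 0.813% in WT. Its 15-base microexon in 3 of 5 transcripts, part 52, stood at 22.8 ± 0.531% in KO and 25.1 ± 1.79% in WT (SD, n = 3 each), with a log2 usage change of -0.14 (edgeR adjusted p = 0.754). Dnm2 part 31, Ppp1r12a part 24 and Stx16 part 10 had log2 usage changes of 0.09, -0.02 and -0.19 and did not pass (edgeR adjusted p = 0.965, 0.996 and 0.650).

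Macf1 and Dst, the pair with 16 of 18 bases in common, are given side by side. Macf1 part 10 made up 0.198%, 0.183% and 0.183% of its gene in KO1, KO2 and KO3, against 0.217%, 0.206% and 0.231% in WT1, WT2 and WT3, and stood at 15.3 ± 0.478% of its flanks in KO and 18.1 ± 0.787% in WT (SD, n = 3 each). All KO libraries were below all WT libraries, and the log2 usage change was -0.21 (edgeR adjusted p = 0.446; exact two-sided permutation p = 0.1). Dst part 110 stood at 54.5 ± 2.84% in KO and 55.0 ± 1.86% in WT (SD, n = 3 each), overlapping, with a log2 usage change of 0.05 (edgeR adjusted p = 0.972). The flanks are of 212 and 75 bases in Macf1 and of 75 and 118 bases in Dst, and counts were not divided by length. Eif4g3 part 17 stood at 6.20 ± 0.121% of its flanks in KO and 4.92 ± 0.599% in WT, and Asap2 part 20 at 2.60 ± 0.393% in KO and 2.21 ± 0.343% in WT (SD, n = 3 each); neither passed the edgeR test.

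**Figure D5:**
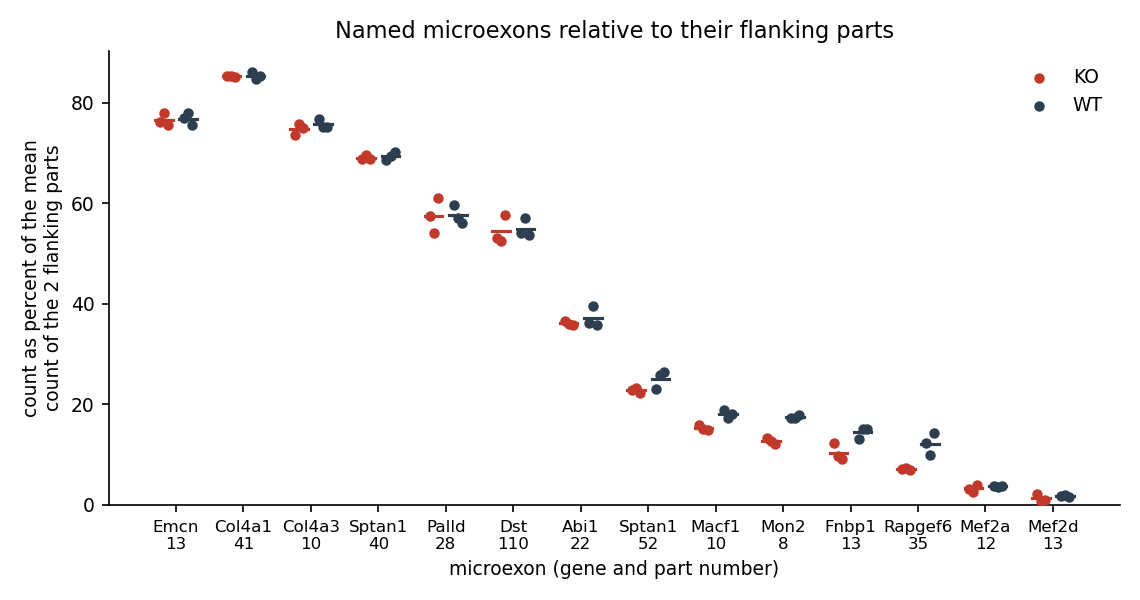
Counts of 14 named microexons as a percentage of the mean count of their flanking parts (y axis) in each library, KO left of WT for each microexon, with the mean as a line; the number under a gene is the part. Col4a1 part 41 averages 85.3% in KO and 85.4% in WT, Mef2d part 13 averages 1.31% in KO and 1.81% in WT, and Mon2, Macf1 and Rapgef6 show KO libraries below WT libraries.

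At the short end, microexons of 3 to 5 bases were counted rarely. The 3 most counted, Sept7 part 6, Abtb1 part 9 and Dnm2 part 23, are all of 5 bases, so inclusion shifts the frame, and each is in 1 spanning transcript. Abtb1 part 9 had a usage of 0.763 ± 0.0574% in KO and 0.855 ± 0.183% in WT, and Sept7 part 6 of 0.0963 ± 0.00203% in KO and 0.119 ± 0.0219% in WT (SD, n = 3 each). Both pairs overlapped. Clasp2 part 38, of 3 bases, had 24 to 127 counts in KO and 13 to 26 in WT. Its log2 usage change was 1.30 in all libraries and 0.17 without KO1, the high library for Relb too (edgeR adjusted p = 0.811 and 1.00).

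Factors that act on short exons were read from the gene-level test. Of 35 regulators, 34 were tested, 1 rose and 1 fell, where 1.62% of all genes were called higher and 1.76% lower. An unadjusted p under 0.05 was found for 15 of the 34, and for 22.6% of all genes; the regulators' median log2 change was -0.13, against 0.01 for all genes. The 1 regulator called lower was Cd2bp2, the gene targeted in these mice, which fell by 0.32 (edgeR adjusted p = 0.0297). No other regulator was called lower, so that count says nothing about the rest of the list. Rbfox1, an inclusion factor of neurons and muscle, rose by 1.30 (edgeR adjusted p = 0.0456) but was barely detected, at 1.47 ± 0.390 CPM in KO and 0.593 ± 0.0677 CPM in WT (SD, n = 3 each). In the 6 fits without 1 library, regulators called higher numbered 0 in each, and those called lower 0 or 1. Ptbp1, which represses neuronal microexons, had 426 ± 37.1 CPM in KO and 478 ± 28.6 CPM in WT, and Qk 451 ± 16.7 CPM in KO and 543 ± 23.3 CPM in WT (SD, n = 3 each); neither passed, with edgeR adjusted p of 0.282 and 0.0581.

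Srrm4, the main activator of neuronal microexons, was listed at 24.9 ± 2.73 CPM in KO and 34.04 ± 2.46 CPM in WT (SD, n = 3 each), a log2 change of -0.45 (edgeR adjusted p = 0.0608). Its counts did not cover the gene. Parts 1 to 3, at the 3′ end, held 93.1%, 93.1% and 93.3% of them in KO1, KO2 and KO3 and 93.6%, 92.7% and 93.6% in WT1, WT2 and WT3. The 8 parts at the 5′ end had 3, 11 and 2 counts in total in the KO libraries and 4, 7 and 0 in the WT libraries. Its relative Srrm3 had 0 counts in each KO library and 1, 2 and 5 in the WT libraries, and was not tested.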

How the data were processed

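RNA-seq of polyadenylated RNA was measured in 3 KO and 3 WT podocyte libraries. The authors deposited 1 table of exonic parts per library with read counts per part, covered bases, part length and the covered fraction of the part. The annotation is Ensembl 67 on NCBIM37, per the file headers, whereas TopHat 1.4.1 and a human build, GRCh37, appear in the submitters' processing notes. Which program counted reads, and whether by strand, is not given in the sources used here, and reads of overlapping genes cannot be told apart. Only the deposited counts and the part lengths were used; the deposited covered fraction and covered bases were not.

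Usage was tested with edgeR 4.0.16 (quasi-likelihood, log gene sum as offset, R 4.3.3) and gene sums with edgeR and TMM, both with Benjamini-Hochberg adjustment at 0.05. Alternatives used limma 3.58.1, DESeq2 1.42.0, other offsets, filters and left-out libraries, and the procedure was tested on simulated data. Permutation tests used SciPy 1.17.1. Named microexons were those past a usage test on all 6 libraries, the 5 largest changes in each direction without overlap and with at least 50 counts, the 5 most counted of each frame class, tested members of the podocyte and known microexon gene lists, and the 3 most counted of 3 to 5 bases. Tspan32, Ntrk3, Ablim3, Trp53 and Clasp2 were picked out after their values were seen, as was the flank measure. The microexons and lists were chosen with earlier results of these data known. CPM values are counts over TMM-scaled library totals.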

Additional observations from a re-analysis of the deposited data

How the results depend on the processing

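Aifm3 part 34 kept its direction and passed in every alternative in which it could be fitted; H2-Q4 part 12 did not. Microexons called higher numbered 1 with limma, 1 with DESeq2 and 1 with the replicate block (Relb part 20, 1.82, edgeR adjusted p = 0.0443), and 0 to 2 with 1 library left out (Arntl part 6 and Syt17 part 7 without KO3). Those called lower numbered 0 with the nearest separate parts as offset, where Aifm3 part 34 could not be tested, 1 with the nearest parts that are not microexons, 1 with diffSpliceDGE, 1 among microexons with gaps of at least 30 bases, and 1 to 2 with 1 library left out. Genes with a microexon that rose numbered 85 with DESeq2, 9 with the replicate block and 2 to 12 with 1 library left out, and those that fell 98, 1 and 0 to 13. Regulators that rose numbered 3 with DESeq2, 0 with the block and 0 to 0 with 1 library left out, and those that fell 7, 0 and 0 to 1. The median change of microexons not a multiple of 3 ran from -0.00677 to 0.0124 with 1 library left out.

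Directions turned for Sgce part 14 (-0.0534), Vav2 part 20 (-0.00634), Emcn part 13 (0.0583), Dst part 110 (-0.0134), Palld part 28 (-0.00213) and H2-Q4 part 12 (0.25) with the nearest parts that are not microexons, for Apbb2 part 14 (0.30), Ank2 part 13 (0.11), Dst (-0.0134), Palld (-0.00218) and H2-Q4 (0.25) with the nearest separate parts, and for Tns3 part 2 with limma (-0.0511). As a share of the flanks, the log2 differences of Dst and Palld were -0.0130 and -0.00412. Without 1 library, Macf1 part 11 ran from -0.163 to 0.260 and Col4a1 part 41 from -0.0323 to 0.0433. The cause was not tested.

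Same-numbered KO and WT libraries had correlations of 0.107, -0.0603 and 0.158 in their gene-level deviations, so the numbers were not taken as pairs; the replicate block moved all parts called to 445, against 264 without it. Low counts limit most microexons: 498 had no count in any library.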
